A study of Mus musculus with 8 samples.

Results

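The proteasome genes of the mouse cortex were examined in 4 PS19 mice and 4 Adrb1+/m;PS19 mice, by genotype and by how the genes varied together over the 8 mice. Members were the protein-coding rows of the count table whose symbol begins with Psm, a letter from a to g and a digit, with Psmb8 and Psmb9 left out. This gave 48 of the 54532 listed genes, on 16 chromosomes. Of these, 46 were among the 17195 genes with enough counts to be tested. Psma8 (3 to 20 counts per mouse) and Psmb11 (1 to 9 counts) did not pass, and they are known as the testis and the thymus form of a 20S subunit. PS19 mice carry a transgene for the 1N4R form of human tau with the P301S mutation, driven by the mouse prion promoter, so that all 8 mice express human tau. Adrb1+/m;PS19 mice carry in addition 1 knock-in copy of Adrb1, the β1-adrenergic receptor gene, with the A187V change. All were 8 months old, of the C57BL/6 strain, singly housed on a 12:12 light cycle, and per the study's methods male with littermates as controls. Each library was bulk RNA from the dissected cortex of 1 mouse (PS19 replicates 1 to 4 are mice m677, m668, m665 and m659, and Adrb1+/m;PS19 replicates 1 to 4 are mice m671, m661, m660 and m658), with 14653222 to 21223754 counted reads per mouse. Levels are given as CPM, read counts normalised to the size of the library. In bulk tissue, fewer cells of a type and less RNA per cell cannot be told apart.

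The 26S proteasome degrades proteins tagged with ubiquitin. Its 20S core is a barrel of rings of α subunits, which gate the entry, and rings of β subunits, of which β1, β2 and β5 (Psmb6, Psmb7 and Psmb5) cut the substrate, and its 19S particle binds ubiquitin chains, removes them and unfolds the substrate with a ring of ATPases (the Psmc genes). In neurons the complex clears short-lived and damaged proteins, tau among its known substrates, and the transcription factor NRF1, encoded by Nfe2l1, raises the transcription of the subunit genes together when proteasome activity is low. The members do not all fit the name of constitutive subunits. They held 31 subunits of the 20S core (14 genes) and the 19S particle (17 genes), 7 assembly chaperones (Psmd5, Psmd9, Psmd10 and Psmg1 to Psmg4), and the 6 activators and inhibitor (Psme1, Psme2, Psme2b, Psme3, Psme4 and Psmf1). They also held Psmb10, the interferon-inducible β2i that belongs with Psmb8 and Psmb9, the tissue-restricted Psma8 and Psmb11, and Psmc3ip, a recombination factor that shares only the name.

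Promoter sequence was at hand for 40 of the 48 members, as 250 bases before to 50 after the start site in RefSeq on GRCm38.p6 (all but Psma8, Psmb1, Psmb2, Psmb7, Psmc3, Psmd3, Psmd7 and Psmg2). Both strands were searched for TGACNNNGC, the core of the antioxidant response element that factors of the NRF family bind, for CCGGAAG, a core that ETS factors bind, for CCAAT and for GGGCGG, the GC box. TGACNNNGC was found in 6 of 40 members (15.0%), against 14.0% of all 27025 promoters and 16.6% of the 11288 promoters of tested protein-coding genes. CCGGAAG was found in 15 members (37.5%), against 9.93% of all promoters and 18.0% of those of tested coding genes. CCAAT was in 14 members (35.0%, against 41.1% and 42.5%) and GGGCGG in 22 (55.0%, against 38.2% and 67.3%). Of the 98 matches, 4 overlapped a match of another motif. A match describes these letters and not a bound site. The stretches below belong to members whose values are given in full: the catalytic subunits Psmb5 and Psmb6 with TGACNNNGC, and Psmd11, Psmd12 and Psmd4 with CCGGAAG on either strand. Psmd12 and Psme4 also held TGACNNNGC, in letters not printed here. Capitals mark only the motif named for the gene, and the Psmd11 stretch also holds GGGCGG in lower case. Coordinates are on GRCm38.p6, and each stretch runs 5′ to 3′ on the gene's strand, ending at the latest at the last base before the start site.
Psmb5, chr14:54618009-54618067, minus strand: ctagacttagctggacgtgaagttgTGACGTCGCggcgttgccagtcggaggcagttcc
Psmb6, chr11:70525323-70525356, plus strand: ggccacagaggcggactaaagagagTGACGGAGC
Psmd11, chr11:80428579-80428614, plus strand: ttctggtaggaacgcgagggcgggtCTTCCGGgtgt
Psmd12, chr11:107479486-107479527, plus strand: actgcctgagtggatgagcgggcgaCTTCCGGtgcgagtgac
Psmd4, chr3:95042708-95042764, minus strand: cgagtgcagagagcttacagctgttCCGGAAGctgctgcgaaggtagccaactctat

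Proteasome gene transcripts differed little between the genotypes, and none of the 46 tested members passed the test. The comparison asked whether the Adrb1 mutation went with a changed level of the cortex's protein degradation machinery in tau transgenic mice. With edgeR's quasi-likelihood test, 0 of 46 members reached an unadjusted p under 0.05 (2.80% of all 17195 genes did, 1.42% higher and 1.37% lower), and 0 reached an adjusted p under 0.05 (0 of all genes). DESeq2 (1.65% of 33611 genes) and limma-voom (2.86%) also gave 0 members. The smallest unadjusted p was 0.0704, for Psmd11. The log2 fold changes of Adrb1+/m;PS19 over PS19 ran from -0.15 (Psmg1) to 0.17 (Psme1), 22 of them above 0 and 24 below, with a median of -0.00208 against 0.000459 over all tested genes. In 0 members did the 4 and 4 mice fail to overlap (2.02% of all genes).

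The depth behind these genes bounds what the comparison could have missed. The 31 subunits of the core and the 19S particle had 576 to 3763 counts in each mouse, and their standard errors had a median of 0.0601 on the log2 scale. For all 31, the 95% interval of the difference lay within 1.25-fold in either direction. Over the 46 tested members this held for 38 (82.6%), beside 51.4% of all tested genes and 83.1% of the 10438 tested genes with a mean of 10 CPM or more. The 8 members whose intervals reached further were Psme1, Psme2, Psme2b, Psmd10, Psmg1, Psmg3, Psmg4 and Psmc3ip. Within a genotype the coefficient of variation of the 31 subunits had a median of 5.02% (2.48% for Psmd6 to 9.68% for Psmb5), where counting alone gives a median of 2.9%. Genes with 10 CPM or more had a median of 7.22%, where counting alone gives a median of 3.62%, so that the 2 sets differ in depth.

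**Figure D1:**
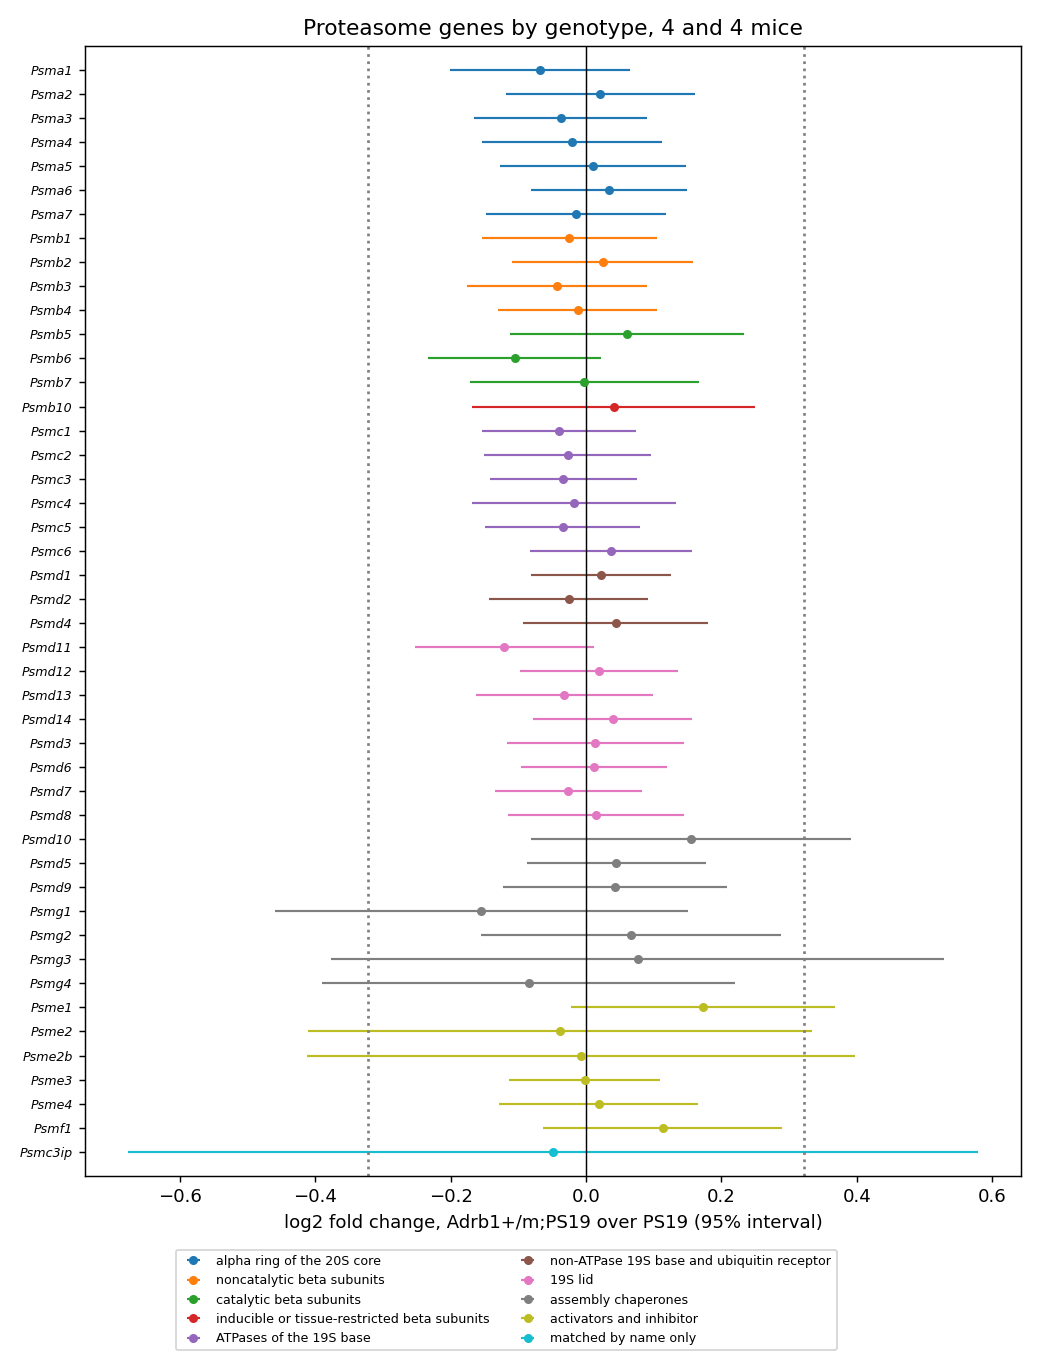
Log2 fold change of Adrb1+/m;PS19 over PS19 (x axis) with its 95% interval for the 46 tested proteasome genes (y axis), coloured by role, n = 4 mice per genotype; dotted lines mark 1.25-fold in each direction. Every interval spans 0, those of all 31 core and 19S subunits lie between the dotted lines, and the widest belong to Psmc3ip, Psmg3 and Psme2b.

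None of the 3 catalytic subunit genes passed the test, and each overlapped between the genotypes. Psmb5, the β5 subunit with chymotrypsin-like activity, was at 58.1, 65.0, 59.4 and 54.8 CPM in PS19 replicates 1 to 4 and at 71.3, 63.4, 56.1 and 56.6 CPM in Adrb1+/m;PS19 replicates 1 to 4. The highest mouse was Adrb1+/m;PS19 replicate 1, and the other 3 of that genotype lay inside the PS19 range. The log2 fold change was 0.06 (SE 0.0805, edgeR unadjusted p = 0.465). Psmb6, the caspase-like β1, was at 69.8, 69.6, 66.1 and 64.5 CPM in PS19 replicates 1 to 4 and at 68.1, 60.2, 63.5 and 59.3 CPM in Adrb1+/m;PS19 replicates 1 to 4. Here 3 of the 4 Adrb1+/m;PS19 mice lay below all PS19 mice and replicate 1 lay among the upper ones, with a log2 fold change of -0.11 (SE 0.0594, edgeR unadjusted p = 0.0985, adjusted p = 0.9996). Without that replicate the log2 fold change of Psmb6 was -0.15 (edgeR unadjusted p = 0.0267). Without Adrb1+/m;PS19 replicate 4 it was -0.0795 (edgeR unadjusted p = 0.244). Psmb7, the trypsin-like β2, was at 52.8, 57.8, 50.4 and 53.5 CPM in PS19 replicates 1 to 4 and at 57.0, 59.5, 46.5 and 50.8 CPM in Adrb1+/m;PS19 replicates 1 to 4. Its Adrb1+/m;PS19 mice held both the highest and the lowest value, around nearly the same mean (53.6 CPM ± 3.08 in PS19 and 53.5 ± 5.9 in Adrb1+/m;PS19, SD, n = 4).

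None of the other tested 20S genes passed the test either. The 7 tested α ring genes, which form the gate, had log2 fold changes from -0.068 (Psma1) to 0.034 (Psma6), 3 above 0 and 4 below. The noncatalytic Psmb1, Psmb2, Psmb3 and Psmb4, which complete the β ring, ran from -0.0427 (Psmb3) to 0.025 (Psmb2). Of Psma8, 0.181 to 0.614 CPM was counted in PS19 mice and 0.3 to 0.958 CPM in Adrb1+/m;PS19 mice, and of Psmb11 0.069 to 0.425 CPM and 0.168 to 0.3 CPM. Both genes were near the limit of detection at this depth and were not tested. The 6 ATPase genes of the 19S base ran from -0.0398 (Psmc1) to 0.0369 (Psmc6), 5 of the 6 below 0, and each had an unadjusted p of 0.462 or more. The scaffold genes Psmd1 and Psmd2 and the ubiquitin receptor gene Psmd4 were at 0.022, -0.0254 and 0.0438.

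The 8 lid genes, which place the deubiquitinase encoded by Psmd14 over the pore, ran from -0.12 to 0.0395, and Psmd11 stood at the low end. Psmd11, a lid subunit whose level is known to set the amount of assembled 26S proteasome in stem cells, was at 50.1, 53.2, 54.3 and 57.9 CPM in PS19 replicates 1 to 4 and at 50.6, 46.8, 49.9 and 51.0 CPM in Adrb1+/m;PS19 replicates 1 to 4. Adrb1+/m;PS19 mice lay low, though the lowest PS19 mouse (replicate 1) was inside their range. Its means were 53.9 ± 3.24 and 49.6 ± 1.93 CPM (SD, n = 4), a log2 fold change of -0.12 (SE 0.0612, edgeR unadjusted p = 0.0704, adjusted p = 0.9996). Without PS19 replicate 1 it was -0.15 (edgeR unadjusted p = 0.0345), and without PS19 replicate 4 it was -0.0844 (edgeR unadjusted p = 0.211). Psmd12, the lid gene with the highest median correlation with the other members, was at 58.2, 57.6, 55.3 and 57.3 CPM in PS19 replicates 1 to 4 and at 60.9, 58.3, 57.2 and 55.1 CPM in Adrb1+/m;PS19 replicates 1 to 4. Its 8 values spanned 55.1 to 60.9 CPM, with both ends in the Adrb1+/m;PS19 group and a log2 fold change of 0.0194 (SE 0.0543).

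The chaperones, which dock the ATPases or pair the α subunits during assembly, had within-genotype coefficients of variation from 4.72% (Psmd5) to 21.6% (Psmg3). For Psmg4 (9.54%) it was no larger than counting alone gives (9.93%). Psmd10, the gene of gankyrin, was at 13.9, 11.0, 11.3 and 11.2 CPM in PS19 replicates 1 to 4 and at 12.4, 14.6, 12.1 and 13.6 CPM in Adrb1+/m;PS19 replicates 1 to 4. In PS19 mice, 3 values lay within 11.0 to 11.3 CPM and replicate 1 stood apart at 13.9, inside the Adrb1+/m;PS19 range. The log2 fold change was 0.16 (SE 0.11, edgeR unadjusted p = 0.179) with that mouse and 0.24 (edgeR unadjusted p = 0.0455) without it. Leaving out Adrb1+/m;PS19 replicate 2 instead gave 0.1 (edgeR unadjusted p = 0.408). Of the 7 chaperones, 5 were above 0 and 2 below. Psmg1, the chaperone with the lowest log2 fold change (-0.15), had a mean of 7.49 ± 0.744 CPM in PS19 and 6.75 ± 0.908 CPM in Adrb1+/m;PS19 mice (SD, n = 4, edgeR unadjusted p = 0.294).

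Psme1 and Psme2 encode the α and β chains of PA28, the interferon-inducible cap that opens the core. Psme1 was at 28.2, 22.7, 20.7 and 24.7 CPM in PS19 replicates 1 to 4 and at 27.8, 25.9, 27.2 and 27.6 CPM in Adrb1+/m;PS19 replicates 1 to 4. All Adrb1+/m;PS19 mice lay between 25.9 and 27.8 CPM, above 3 of the 4 PS19 mice and below PS19 replicate 1. The log2 fold change was 0.17 (SE 0.0908, edgeR unadjusted p = 0.0784), and without PS19 replicate 1 it was 0.26 (edgeR unadjusted p = 0.00954). Leaving out PS19 replicate 3 instead gave 0.1 for Psme1 (edgeR unadjusted p = 0.252). Its partner Psme2 was at 15.3, 11.3, 9.53 and 9.88 CPM in PS19 replicates 1 to 4 and at 10.2, 12.7, 13.3 and 8.38 CPM in Adrb1+/m;PS19 replicates 1 to 4. The highest and the lowest mouse were of different genotypes and the fold change did not follow that of Psme1 (-0.0382, SE 0.173). Reads of Psme2 and of Psme2b, a near-identical copy on another chromosome, may have been split by the counting, so that both are uncertain. Psme4, the gene of PA200, a cap that acts without ubiquitin, was at 61.2, 65.1, 70.4 and 56.2 CPM in PS19 replicates 1 to 4 and at 61.2, 66.3, 64.2 and 64.7 CPM in Adrb1+/m;PS19 replicates 1 to 4. PS19 mice held both the highest and the lowest value, and the log2 fold change was 0.019 (SE 0.0683). Psme3, the nuclear PA28γ, was at -0.0019, and Psmf1, the inhibitor PI31, at 0.11 (SE 0.0822, edgeR unadjusted p = 0.19), a call gained when Adrb1+/m;PS19 replicate 4 was left out.

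The inducible β subunits replace the constitutive ones in cells exposed to interferon and are known from microglia in the brain. Psmb10 (β2i) was at 28.8, 26.0, 30.3 and 26.4 CPM in PS19 replicates 1 to 4 and at 33.7, 30.2, 25.4 and 25.5 CPM in Adrb1+/m;PS19 replicates 1 to 4. Its highest mouse was Adrb1+/m;PS19 replicate 1, with a log2 fold change of 0.0409 (SE 0.0969) between the groups. Psmb8 (β5i), which the rule leaves out, was at 4.47, 4.0, 2.41 and 4.16 CPM in PS19 replicates 1 to 4 and at 3.06, 2.44, 4.87 and 3.51 CPM in Adrb1+/m;PS19 replicates 1 to 4. Psmb9 (β1i), also left out, was at 3.18, 1.66, 1.32 and 3.85 CPM in PS19 replicates 1 to 4 and at 2.22, 2.87, 2.52 and 2.55 CPM in Adrb1+/m;PS19 replicates 1 to 4. All 3 genes overlapped between the genotypes (edgeR unadjusted p = 0.669 for Psmb8 and 0.919 for Psmb9). The order of the mice differed between them: Psmb10 had Pearson's r of -0.663 with Psmb8 over the 8 mice (exact permutation p = 0.0796, Spearman's rho -0.69, p = 0.0694) and 0.701 with Psmb5 (exact permutation p = 0.0501, rho 0.619, p = 0.115). Among the 28 pairs of these subunits and PA28 genes, chosen after the values were seen, the smallest adjusted p was 0.557. With the 2 mice farthest in Psmb10 left out, the r of Psmb10 with Psmb5 was 0.411 and that with Psmb8 -0.614. The 10 microglia markers summed to 272.0 to 491.0 CPM in PS19 and 264.0 to 470.0 CPM in Adrb1+/m;PS19 mice, and their mean log2 level was high in PS19 replicates 1 and 4 and Adrb1+/m;PS19 replicates 3 and 4, by 0.517 to 0.637 above the average of the 8 mice. The part of microglia in the levels of these genes was not tested.

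**Figure D2:**
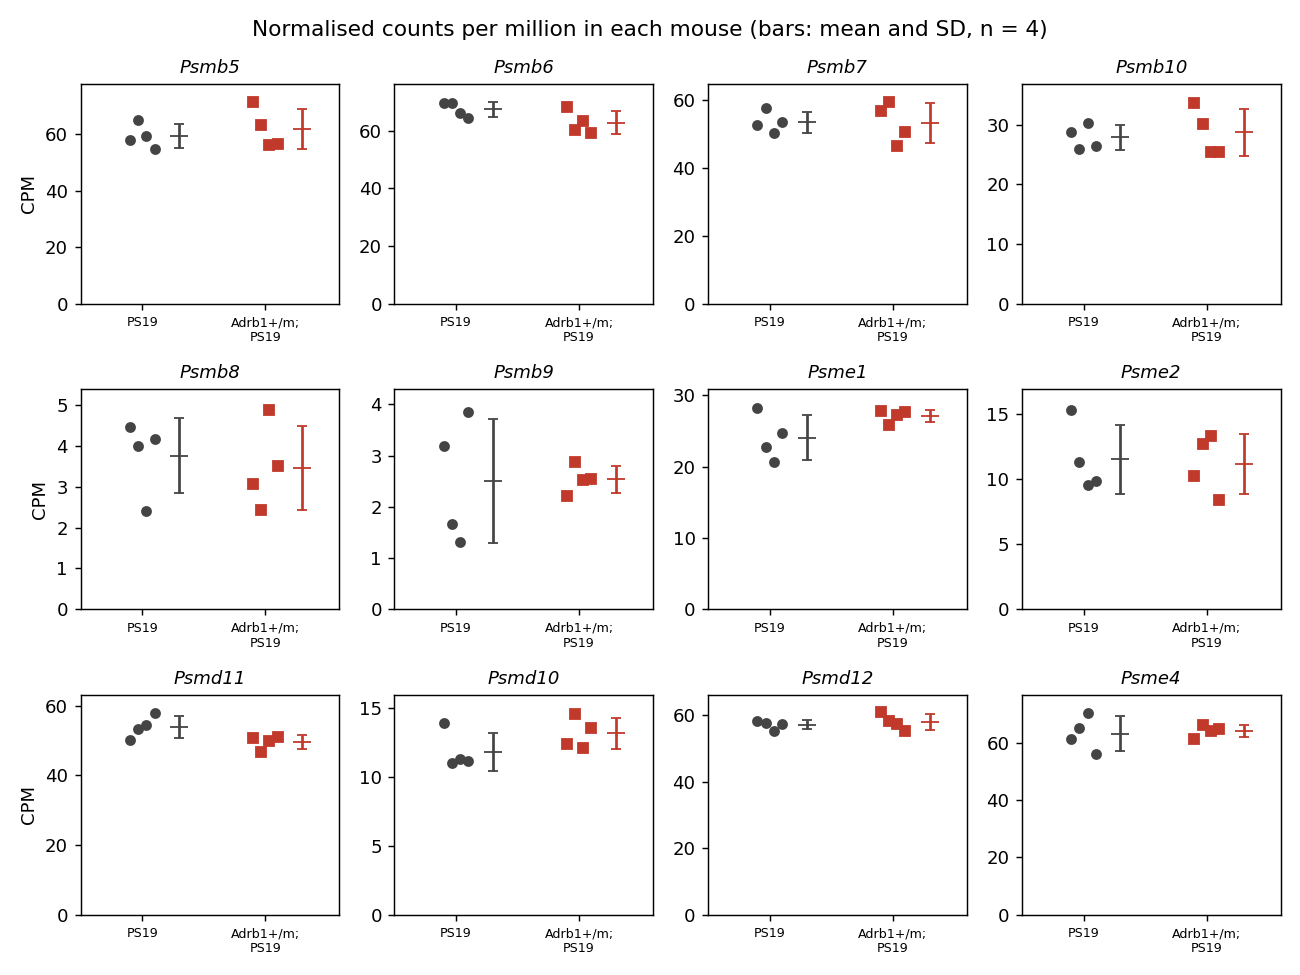
Normalised counts (CPM, y axis, from 0) of 12 genes in each PS19 mouse (grey circles) and each Adrb1+/m;PS19 mouse (red squares), with the mean and SD beside them, n = 4. The genotypes overlap in all 12 genes, and Psmb8, Psmb9 and Psme2 have the widest spread relative to their mean.

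Psmc5, an ATPase gene of the 19S base, had the highest level per length. Per kilobase of the principal annotated transcript, the 31 subunits ran from 18.2 CPM (Psmd11) to 99.0 CPM (Psmc5), a 5.44-fold range, with a median of 51.9. Catalytic β genes had 46.2 (Psmb7), 67.4 (Psmb5) and 81.6 (Psmb6) CPM per kilobase, and the median was 52.3 over the α ring, 61.9 over the ATPases and 44.3 over the lid. The order depends on the length used. With the gene length listed in the table the range was 11.5-fold, with Psmc5 first and Psmd11 last as before, while Psma7 moved from place 2 to place 15. The inducible Psmb10 was at 21.6 CPM per kilobase, below every one of the 31 subunits but Psmd11, and the chaperones ran from 4.66 (Psmg3) to 11.5 (Psmg2).

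Across the 8 mice, the genes of the 20S core and the 19S particle varied together, weakly. Over the 1035 pairs of tested members, Pearson's r of log2 CPM had a median of 0.134, and 62.5% of pairs were positive, beside a median of -0.001 and 49.9% over all pairs of tested genes. Pairs within the 20S core had a median r of 0.294 and pairs within the 19S particle 0.212, and pairs between these particles 0.219. The α ring stood at 0.352, the β subunits at 0.415, the ATPases at 0.244 and the lid at 0.201. Chaperones stood at 0.014 and activators at -0.081. These values describe pairs that share mice, libraries and depth, and no p was computed for a median. Taken as deviations from the mean of each genotype, the median r was 0.168 over all members, 0.332 within the 20S core and 0.233 within the 19S particle. By part it was 0.385 over the α ring, 0.656 over the β subunits, 0.209 over the ATPases and 0.255 over the lid. Over the chaperones it was 0.023 and over the activators -0.193, so that it rose in some parts and fell in others.

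**Figure D3:**
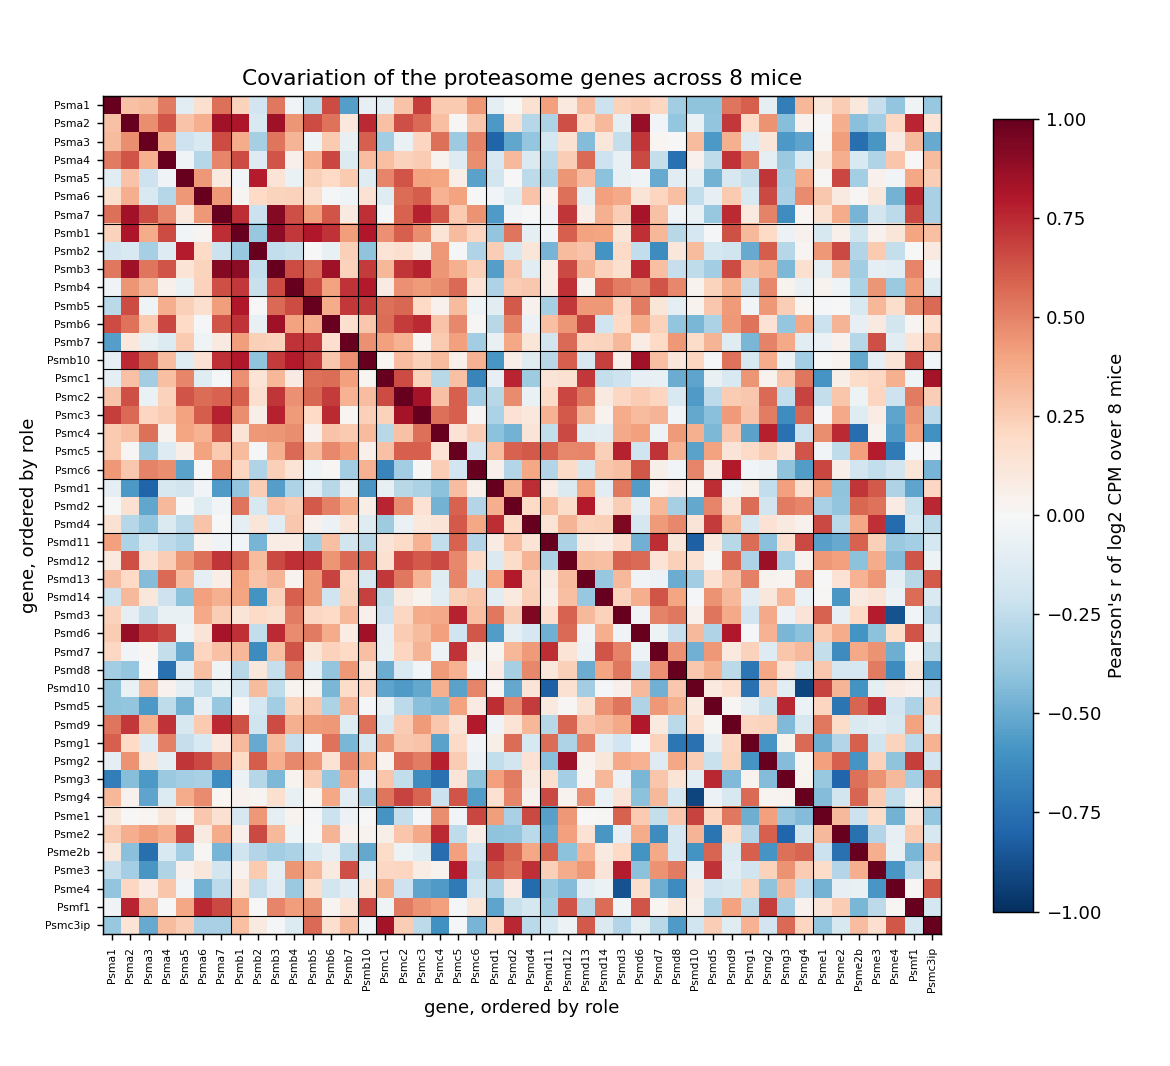
Pearson's r of log2 CPM over the 8 mice (colour, red positive, blue negative) for each pair of the 46 tested members, ordered by role along both axes, with black lines between roles. The block of α and β genes at the upper left is mostly red, and rows of the chaperones and activators mix red and blue.

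**Figure D4:**
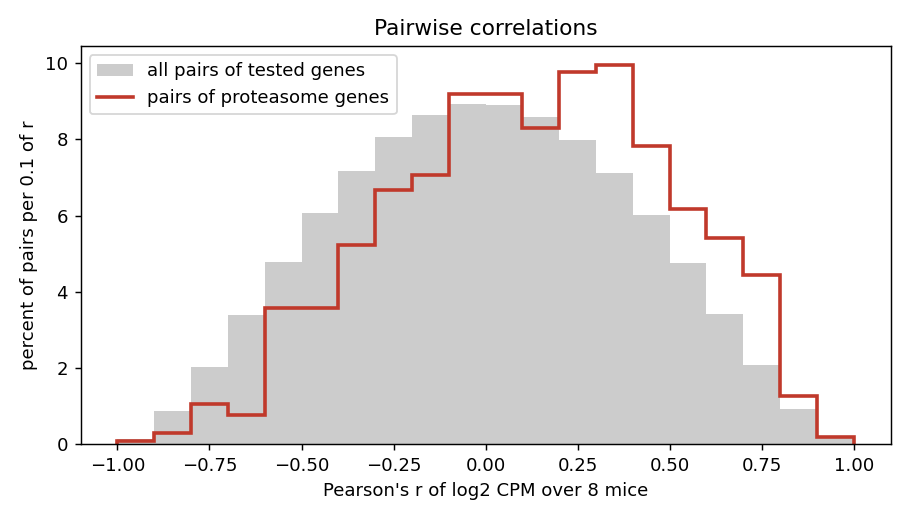
Percent of pairs (y axis) in steps of 0.1 of Pearson's r over 8 mice (x axis), for the 1035 pairs of tested members (red line) and all pairs of tested genes (grey). The members' pairs are shifted to positive values, with a median of 0.134 against -0.001.

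Over all members and the 19S particle this rested largely on 1 mouse, and over the 20S core on another. Adrb1+/m;PS19 replicate 1 had the highest mean level of the members (0.063 on the log2 scale above the average of the 8 mice, where the other 3 of its genotype lay between -0.029 and -0.014), and the members held 0.294% of its counts, beside 0.275% to 0.288% in the other 7 mice. Without it the median r was 0.031 over all members, 0.084 within the 19S particle, 0.125 within the lid and 0.228 among the ATPases. It was 0.257 within the 20S core, 0.311 within the α ring and 0.289 among the β subunits. Without Adrb1+/m;PS19 replicate 4, which had the lowest mean level of the 20S core, the median r was 0.152 within the 20S core, 0.21 within the α ring, 0.354 among the β subunits, 0.265 within the 19S particle and 0.168 among the ATPases. The parts did not all follow their particle: the β subunits fell more without replicate 1 of Adrb1+/m;PS19, and the ATPases more without its replicate 4. Leaving out any mouse but replicate 1 of Adrb1+/m;PS19 gave 0.145 to 0.171 over all members. Against the average of the 8 mice, that replicate 1 was also highest in striatum markers (0.674) and lowest in endothelial ones (-0.214). Adrb1+/m;PS19 replicate 4 was highest in choroid plexus (2.098) and basal forebrain cholinergic markers (0.6) and lowest in cortical excitatory ones (-0.216). Neither mouse was at an end for neuron, astrocyte, microglia or oligodendrocyte markers. The part of tissue make-up in the covariation was not tested.

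**Figure D5:**
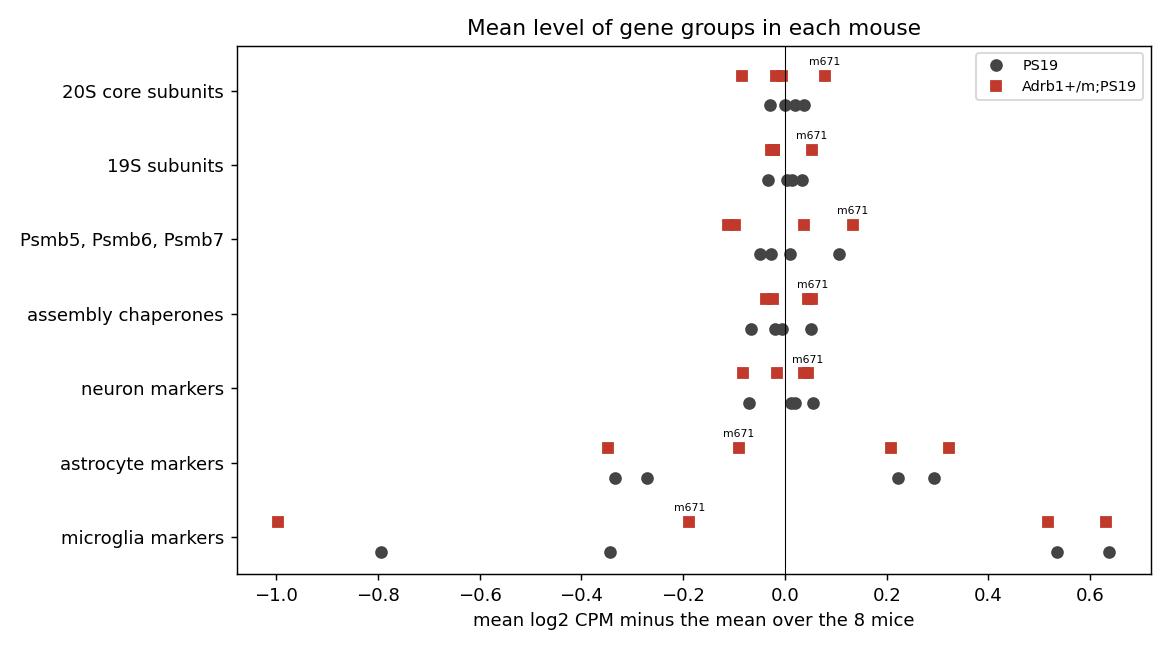
Mean log2 CPM of each gene group minus its mean over the 8 mice (x axis) in PS19 mice (grey circles) and Adrb1+/m;PS19 mice (red squares); m671 is Adrb1+/m;PS19 replicate 1. It is the highest mouse for the 20S and 19S subunits, and the proteasome groups spread far less than the astrocyte and microglia markers.

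Of the 1035 pairs, 70 (6.76%) had an exact permutation p under 0.05 for Pearson's r, 55 of them positive, 48 for Spearman's rho, and 0 passed adjustment (smallest adjusted p 0.713 and 0.578). The same share over all pairs of tested genes is not given here, so these counts do not set the members apart from other genes. The 3 highest r were those of Psmd3 with Psmd4 (0.934, exact permutation p = 0.000893, rho 0.929, p = 0.00223), of Psma7 with Psmb3 (0.921, exact p = 0.00255, rho 0.833, p = 0.0154) and of Psmb1 with Psmb3 (0.894, exact p = 0.0033, rho 0.905, p = 0.00456). Psmd3 (lid) was at 120, 117, 106 and 124 CPM in PS19 and at 126, 113, 114 and 119 CPM in Adrb1+/m;PS19 mice, and Psmd4, the ubiquitin receptor, at 77, 75.4, 68.9 and 80.9 CPM and at 81.9, 73.1, 75 and 81.6 CPM. In both genes PS19 replicate 3 was lowest and Adrb1+/m;PS19 replicate 1 highest. With the 2 mice farthest from the median left out, r was 0.823, 0.679 and 0.817 for these 3 pairs. The 3 lowest r were those of Psmd10 with Psmg4 (-0.918, exact p = 0.00382, rho -0.929, p = 0.00223), of Psmd3 with Psme4 (-0.869, exact p = 0.00729, rho -0.857, p = 0.0107) and of Psmd10 with Psmd11 (-0.816, exact p = 0.00871, rho -0.762, p = 0.0368). Without the 2 farthest mice these were -0.829, -0.869 and -0.664. Psmg4 had only 84 to 122 counts per mouse and varied within a genotype no more than counting alone gives (9.54% against 9.93%). Its r with Psmd10 is uncertain for that reason. Within genotypes the r of the 6 pairs was 0.948, 0.943, 0.899, -0.93, -0.894 and -0.731 in the order given. The pairs were picked for their extreme r in these same mice. Neither these values nor those without the 2 farthest mice are therefore a separate check. Psmd12 had the highest median r with the other members (0.372) and Psme4 the lowest (-0.18).

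No relation of a member with the NRF genes passed adjustment over 8 mice. Nfe2l1 was at 364.0, 402.0, 401.0 and 386.0 CPM in PS19 replicates 1 to 4 and at 400.0, 401.0, 372.0 and 380.0 CPM in Adrb1+/m;PS19 replicates 1 to 4, an even level with a log2 fold change of -0.0017 (SE 0.0494). Its r with the 46 members was positive for 30, with a median of 0.11 (-0.62 to 0.67). Among the catalytic genes its r was 0.651 with Psmb5 (exact permutation p = 0.0801, rho 0.619, p = 0.115), 0.626 with Psmb7 (exact p = 0.0973, rho 0.5, p = 0.216) and 0.026 with Psmb6 (exact p = 0.95, rho 0.095, p = 0.84), where both Psmb5 and Psmb6 hold the TGACNNNGC letters printed above. The other members with TGACNNNGC had r with Nfe2l1 of -0.567 (Psmc6, rho -0.738), -0.263 (Psmd9), 0.15 (Psmd12) and 0.365 (Psme4). Carriers of these letters thus had r of either sign. Nfe2l2, the gene of the related NRF2, was at 18.9, 14.9, 14.1 and 15.2 CPM in PS19 replicates 1 to 4 and at 15.5, 14.0, 19.9 and 21.2 CPM in Adrb1+/m;PS19 replicates 1 to 4, and 15 of its 46 r values were positive (median -0.22). The r of Nfe2l1 and Nfe2l2 with all tested genes is not given here, so these counts and medians have no background beside them. Of the 92 relations of the 2 genes with members, 0 had an exact permutation p under 0.05 by Pearson's r, 3 did by Spearman's rho (Nfe2l1 with Psmc1, Psmc6 and Psme1, named after their values were seen), and the smallest adjusted p was 0.868. These are transcript levels, and NRF1 is known to be controlled largely as a protein.

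Of 43 genes in 5 further lists of the pathway, 1 passed the unadjusted test, where 2.80% of all tested genes did, so that the lists do not stand out from the background. Pomp, the chaperone of the maturing 20S core, was at 80.3, 82.9, 77.8 and 74.4 CPM in PS19 replicates 1 to 4 and at 76.9, 71.8, 70.2 and 71.1 CPM in Adrb1+/m;PS19 replicates 1 to 4. Adrb1+/m;PS19 mice lay low, with replicate 1 inside the PS19 range, and the log2 fold change was -0.12 (SE 0.0554, edgeR unadjusted p = 0.0474, adjusted p = 0.9996). DESeq2 gave an unadjusted p of 0.0535. The call was also lost without any one of PS19 replicates 1, 2 and 3 and Adrb1+/m;PS19 replicates 2, 3 and 4 (edgeR unadjusted p from 0.0632 to 0.134). The list of Pomp held 10 tested particle parts and assembly factors, 4 above 0 and 6 below (median log2 fold change -0.0337), with no other call, among them Adrm1, a ubiquitin receptor (-0.0819), and Usp14, a deubiquitinase of the 19S particle (0.0737). None of 7 regulators of proteasome transcription passed (median 0.0502), the nearest being Vcp, the segregase that extracts ubiquitinated proteins (0.0971, SE 0.054, edgeR unadjusted p = 0.0947). None of 6 ubiquitin and E1 genes passed (median -0.0726). Among them Rps27a, which encodes ubiquitin fused to a ribosomal protein, had the log2 fold change farthest from 0 in the 5 lists (-0.34, SE 0.182, edgeR unadjusted p = 0.0816). It was at 64.9, 56.8, 59.8 and 116.0 CPM in PS19 and at 61.1, 53.4, 67.3 and 52.5 CPM in Adrb1+/m;PS19 mice. PS19 replicate 4 stood far above the other 7 mice, which overlapped. Rps27a, named after its values were seen, was called in place of Pomp without PS19 replicate 2, without PS19 replicate 3 and without the count filter. There were no calls among 10 shuttle and extraction factors (median 0.0112) and 10 immunoproteasome and antigen presentation genes (median 0.0217). Of the marker lists, the ones for astrocytes (5 genes), microglia (10), oligodendrocytes (5) and endothelium (5) had 0 calls each. The 8 cortical excitatory neuron markers had 7 lower and 3 of them called (median -0.15), the 7 neuron markers had 1 called in each direction, and the 5 basal forebrain cholinergic markers were all higher and all called (median 0.69). Slc17a7 stands in both neuron lists, so that its lower call is counted in each. The 6 striatum markers (median 0.33) and 5 choroid plexus markers (median 0.42) were all higher with no call. Summed over the list, the cortical excitatory markers ran from 1501.7 to 1727.0 CPM in PS19 and from 1364.9 to 1556.9 CPM in Adrb1+/m;PS19 mice, and no marker of any list was at 0 in all mice. The part of this tissue make-up in the proteasome values was not tested.

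Of the 48 members, 22 overlap another listed gene and 17 a gene on the other strand. The strand setting of the counting was not stated, so that reads of such partners cannot be told apart. The labels give separate mice and no litter or library batch. The edgeR p-values set the genotype difference against the spread between mice of a genotype. Any litter or batch difference cannot be told apart here. Adrb1 itself was at 36.8 ± 4.19 CPM in PS19 and 35.0 ± 3.71 CPM in Adrb1+/m;PS19 mice (SD, n = 4, edgeR unadjusted p = 0.458), and since the knock-in changes a base and not the amount of the gene, this level does not check the labels.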

How the data were processed

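The authors aligned paired reads to GRCm38 with HISAT2 2.0.5 and counted them per Ensembl gene with featureCounts 1.5.0-p3 (versions also in the submitters' processing notes); they deposited raw counts for 8 mice, with no normalization. Whether the counting used strand, and how it treated reads with several matches, is not given in the sources used here. A deposited gene length in bases, which is no measurement, was used only for levels per kilobase. From the counts, genes kept by filterByExpr were compared with edgeR 4.0.16 (TMM, glmQLFit, glmQLFTest, 2-sided, no covariate, Benjamini-Hochberg over all genes tested) in R 4.3.3, and the study's selection, an unadjusted p under 0.05, was used for counts of calls. Intervals are 95% intervals from that fit. Correlations used log2 CPM with a prior count of 2 and an exact permutation test over 40320 orderings of the mice (SciPy 1.17.1). DESeq2 1.42.0, limma-voom (limma 3.58.1), 1 surrogate variable (sva 3.50.0), other filters and normalizations and leaving out each mouse were tried. Scripts were tested on simulated data. Principal transcripts are those of GENCODE vM21, and promoters those of RefSeq.

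Values in every mouse are given for the 4 members with the smallest p, the catalytic and inducible β genes, Psme1 and Psme2, and the members with the highest and lowest median r. The ranges of the members below the count filter, the 3 highest and 3 lowest pairs, Nfe2l1, Nfe2l2 and any list gene called are also given. The members and lists were chosen with earlier results of these data known. The precision is limited by 4 mice per genotype and by the 14653222 to 21223754 counts per mouse.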

Additional observations from a re-analysis of the deposited data

Results flagged for a closer look

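In a group of 4 mice, a mouse was picked out where its gap to the nearest other mouse, divided by the range of the group, was above Dixon's 95% critical value. Of 110 groups examined (single members and list means), 2 met this, and chance picks out about 1 in 20 groups. Psmd10, the gankyrin gene, was at 13.9 CPM in PS19 replicate 1, far from the 11.0 to 11.3 CPM of the other 3 PS19 mice. The mean log2 level of the members in Adrb1+/m;PS19 replicate 1 was 0.063 above the average of the 8 mice, far from the -0.029 to -0.014 of the other 3 mice of its genotype.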

How the results depend on the processing

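Leaving out mice moved most. The count of members called (0) ran from 0 to 3 without 1 mouse: Psmd10, Psmd11 and Psme1 without PS19 replicate 1, Psmb6 without Adrb1+/m;PS19 replicate 1 and Psmf1 without Adrb1+/m;PS19 replicate 4. The share of all tested genes called is not given here for fits without 1 mouse or with 1 surrogate variable. Counts of calls in those fits therefore have no background beside them. The list genes called (1, Pomp) ran from 0 to 2: Pomp with Tap1 without PS19 replicate 4, Pomp with Adrm1 without Adrb1+/m;PS19 replicate 1, and Rps27a in place of Pomp without PS19 replicate 2 or 3. The median r ran from 0.031 (without Adrb1+/m;PS19 replicate 1) to 0.171. Log2 fold changes near 0 turned: Psme2 ran from -0.13 to 0.13, Psmb7 from -0.0593 to 0.0591, Psme4 from -0.0341 to 0.0772, Psmb5 from -0.0148 to 0.11, Psmb10 from -0.0435 to 0.0952 and Psmd12 from -0.00688 to 0.0419. With 1 surrogate variable, 1 member was called (Psme1, 0.21, edgeR unadjusted p = 0.0401) and 0 list genes, Psmb7 was at 0.00765 and Psme4 at -0.00869. DESeq2 called 0 list genes, and without the count filter Pomp had an unadjusted p of 0.0846 and Rps27a was called. Among members with 10 CPM or more the median r was 0.186. The cause was not tested. The other alternatives gave 0 members called, with a median log2 fold change from -0.00316 to 0.00567. Alternatives for the further lists, the NRF pairs by rank, the inducible subunit pairs and the sub-particles without 1 mouse were chosen after seeing the data. Counting noise was larger for the low chaperone genes and for Psme1 (4.7%) and Psme2 (7.07%) than for the core and 19S subunits (median 2.9%). Within a genotype the coefficient of variation was 9.07% for Psme1 and 21.9% for Psme2, beside a median of 5.02% for those subunits. Both PA28 genes thus varied more than counting alone gives, and depth was not their only limit. No paired analysis was possible because no litter, batch or shared number links mice of different genotypes.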
